A study of Mus musculus with 24 samples.

Results

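Auts2 (ENSMUSG00000029673.9) was followed along its whole length, and over 1 Mb on each side, through the regions called in 12 chromatin immunoprecipitation sequencing (ChIP-seq) libraries. It is 1 of 22208 protein-coding genes of the annotation and was chosen by name, with its pattern in these libraries already known, so all values are a description and no test was made. The gene lies on the minus strand of chromosome 5 at chr5:131913205-133019214 (mm9), so its start is at the high coordinate and its end at the low one. It spans 1106 kb, which puts it 36th by length. The libraries came from immortalized mouse dermal fibroblasts that lacked LAP2alpha (Lap2alpha -/-, here KO) or carried it (Lap2alpha +/+, here WT), after 30 or 12 cycles of sonication. Lamin A/C was precipitated from KO and WT cells with antibody N18, which sees the N terminus, and with antibody 3A6, which sees the C-terminal Ig fold. LAP2alpha and lamin B1 were precipitated from WT cells only. Each combination was represented by 1 library, so no value has a replicate, an SD or a p-value, and how many animals or clones stood behind each cell line is not given in the sources used here. The lists of regions hold no expression, so neither the fibroblast label nor the deletion could be checked against marker genes.

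Lamins form a meshwork under the nuclear membrane, and a share of the A-type lamins also lies in the nuclear interior, where LAP2alpha, an isoform encoded by Tmpo, binds them. Lamin B1 stays at the nuclear periphery and contacts long, gene-poor domains. Auts2 encodes a nuclear protein that joins variant Polycomb repressive complexes containing PCGF3 or PCGF5, where it recruits casein kinase CK2 and the acetyltransferase P300, and in the brain it is associated with active genes. In humans, disruption of AUTS2 is linked to neurodevelopmental disorders. The gene has long introns in its first part and a dense group of short exons near its end, and shorter transcripts begin within it.

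The gene's start and the exon numbers follow its longest transcript, ENSMUST00000161226.1, annotated as nonsense-mediated decay. The long coding transcript, ENSMUST00000061007.7, starts 1.52 kb further in, and the bases before its start are not shown. The following sequences are shown because the libraries divided the gene between them. They are the 250 bases before the gene's start, the 250 bases before a coding transcript that starts near the end of the gene, and exons 2 to 4, which lie on either side of the first steps between libraries. All were read from the minus strand of mm9, 5′ to 3′, and capitals mark each CG dinucleotide.
Auts2 start, chr5:133019215-133019464: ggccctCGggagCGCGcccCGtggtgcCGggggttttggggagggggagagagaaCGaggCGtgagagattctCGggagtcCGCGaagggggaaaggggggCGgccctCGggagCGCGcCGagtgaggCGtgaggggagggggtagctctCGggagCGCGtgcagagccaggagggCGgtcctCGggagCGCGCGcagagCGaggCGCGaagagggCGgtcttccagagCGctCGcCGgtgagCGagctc
Start of ENSMUST00000161374.1, chr5:132014558-132014807: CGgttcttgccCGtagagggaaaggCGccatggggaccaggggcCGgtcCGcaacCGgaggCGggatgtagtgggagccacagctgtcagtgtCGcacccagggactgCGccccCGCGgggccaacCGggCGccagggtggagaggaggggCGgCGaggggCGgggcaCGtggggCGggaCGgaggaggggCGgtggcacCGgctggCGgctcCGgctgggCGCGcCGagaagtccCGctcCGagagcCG
Exon 2, chr5:132734794-132735006: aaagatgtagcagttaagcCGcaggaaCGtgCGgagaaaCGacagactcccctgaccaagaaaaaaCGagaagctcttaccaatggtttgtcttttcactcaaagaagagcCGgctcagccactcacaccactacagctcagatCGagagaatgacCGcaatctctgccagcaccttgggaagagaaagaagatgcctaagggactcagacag
Exon 3, chr5:132526178-132526279: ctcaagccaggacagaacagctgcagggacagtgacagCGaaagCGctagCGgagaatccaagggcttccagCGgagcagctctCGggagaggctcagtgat
Exon 4, chr5:132506860-132506895: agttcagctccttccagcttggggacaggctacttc

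The stretch before the Auts2 start held 32 CG dinucleotides and 73.6% G+C, and 5.18% of 22203 promoters of the same length held as many CG. The median promoter held 8.00 CG and 54.0% G+C. The letters GGGCGG occurred 3 times before the Auts2 start and 4 times before ENSMUST00000161374.1, counting both strands, and at least once in 39.7% of all promoters. The letters TATAAA occurred in neither and in 12.3% of all promoters. The run CTCGGGAGCGCG, looked for after reading the sequence, stood 4 times before the Auts2 start and in 0.0450% of all promoters (10 of 22203). The start before ENSMUST00000161374.1 held 29 CG and 76.0% G+C, and 7.44% of promoters held as many CG. Other coding transcripts that start near the end had fewer CG, 13 (61.6% G+C) before ENSMUST00000161804.1 and 3 (41.6% G+C, 1 TATAAA) before ENSMUST00000160071.1. The coding starts of ENSMUST00000075370.6 and ENSMUST00000159820.1 were not counted for CG. The gene's own start was held by 10 libraries, and each of the 3 counted starts near the end by 6. No domain edge fell between these 3 starts, so their counts of libraries could not differ. The part of CG content was not tested. A match of letters is a description of the sequence and not a binding site.

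The domains were called by the authors with EDD, which looks for broad enrichment over the input in bins of 11 kb. In KO cells after 30 cycles both lamin A/C antibodies held the whole gene, whereas in WT cells after 30 cycles both held only the part next to its start. Within a genotype and sonication both antibodies shared the same input, so they are not independent of each other. EDD domains of lamin A/C-N18 covered 100% of Auts2 in KO against 36.5% in WT after 30 cycles, and 100% in KO against 100% in WT after 12 cycles. For lamin A/C-3A6 the cover was 100% in KO against 33.5% in WT after 30 cycles, and 52.4% in KO against 100% in WT after 12 cycles. The genotype difference of 3A6 therefore had opposite signs at the 2 sonications. LAP2alpha domains covered 0% of the gene after 30 cycles, against 100% after 12 cycles. Lamin B1 domains covered 40.4% after 30 cycles, against 0% after 12 cycles.

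**Figure D1:**
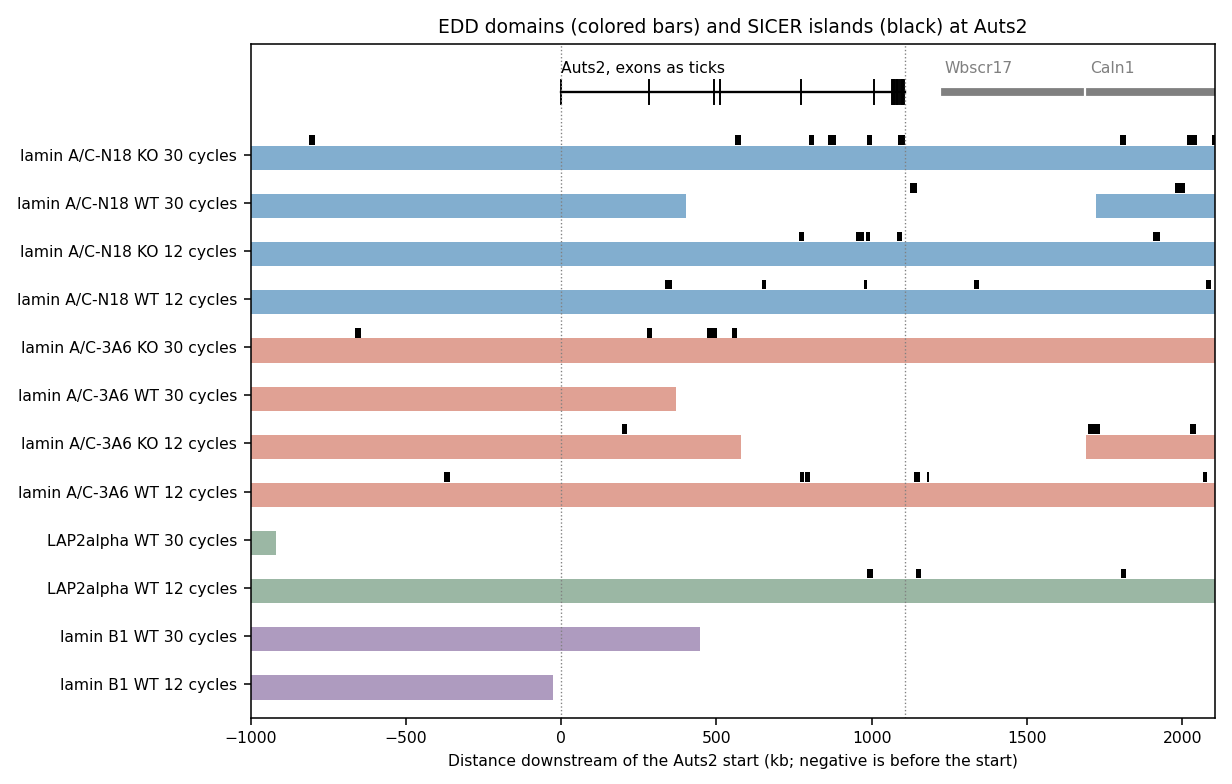
EDD domains (colored bars) and SICER islands (black marks) of 12 libraries, 1 per row, against distance from the Auts2 start in kb, with exons as ticks and neighboring genes in gray above. Domains of 4 libraries end inside the gene, between 370 and 579 kb from its start, and 6 libraries hold it from start to end.

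With a gene counted as held when at least 50% of its length lay in domains, 7 libraries held Auts2, 6 of them from end to end. A further 3 libraries held less than that, 40.4% at most, and 2 held nothing. The library nearest above the limit was 3A6 KO after 12 cycles, at 52.4%, and the nearest below was lamin B1 after 30 cycles, at 40.4%. Being held was common in several of these libraries. Of all protein-coding genes, 28.5% were held by N18 KO against 5.89% by N18 WT after 30 cycles, and 23.1% by N18 KO against 27.4% by N18 WT after 12 cycles. For 3A6 these shares were 12.6% in KO against 9.40% in WT after 30 cycles, and 10.7% in KO against 21.1% in WT after 12 cycles. They were 32.3% after 30 cycles against 35.9% after 12 cycles for LAP2alpha, and 16.8% after 30 cycles against 7.78% after 12 cycles for lamin B1. LAP2alpha after 30 cycles thus held a larger share of genes than all but 1 library and none of Auts2. Of all genes, 6.89% were held in at least 7 libraries, and of the 200 genes of at least 500 kb, 12.5%. The shares that were whole in at least 6 libraries were 11.5% of all genes and 8.50% of the long ones.

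**Figure D2:**
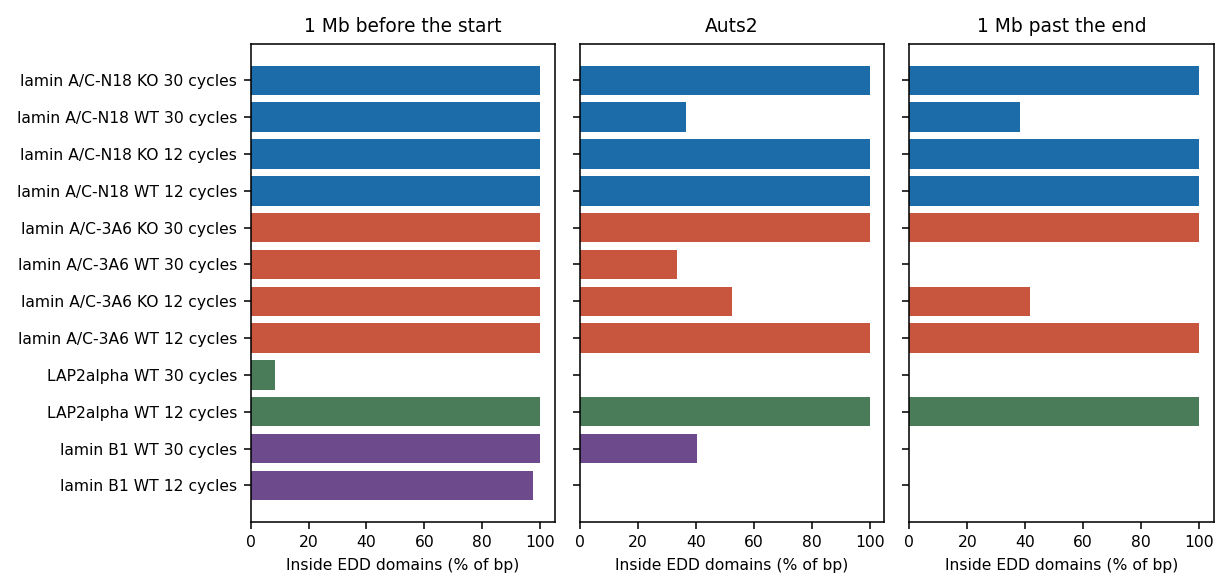
Percent of bp inside EDD domains for the 1 Mb before the Auts2 start, the gene, and the 1 Mb past its end, with 1 bar per library. The stretch before the start is at 97.4% or more in 11 libraries, with LAP2alpha WT 30 cycles at 8.32%, while the gene and the stretch past its end vary from 0% to 100%.

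In 4 libraries a domain edge fell inside the gene. Auts2 was thus cut in 4 libraries, and 0.473% of all genes were cut in at least 4. Among genes of at least 500 kb the share was 14.5% (29 of 200). Auts2 had some of its bp in domains of 10 libraries, which 0.869% of all genes and 18 of the 200 genes of at least 500 kb reached. The 4 edges lay 370 kb from the start in 3A6 WT after 30 cycles, 403 kb in N18 WT after 30 cycles, 447 kb in lamin B1 after 30 cycles and 579 kb in 3A6 KO after 12 cycles. All 4 libraries held the side of the start and left the side of the end. The first 3 edges fell within 77.0 kb, or 7 bins, and all within intron 2 (209 kb), while the fourth fell within intron 4 (260 kb).

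The edges split the gene into 5 stretches. The stretch at the start, chr5:132649001-133019214, made up 33.5% of the gene, carried exons 1 and 2 and was held by 10 libraries. The stretch at the end, chr5:131913205-132440000, made up 47.6%, carried exons 5 to 19 and was held by 6 libraries. Between them lay exons 3 and 4, shown above, which 7 libraries held. In transcripts, 6 of the 14 annotated starts lay in the stretch held by 10 libraries, among them the start of 1 coding transcript, ENSMUST00000061007.7. The other 8 starts lay in the stretch held by 6, among them 5 coding ones. Thus the short coding transcripts that begin 927 to 1071 kb into the gene were outside the domains of every library that cut it. Base composition also differed along the gene, with 45.1% G+C and 11.3 CG per kb in the end stretch, against 42.4% and 8.63 in the start stretch. The part of base composition in where the edges fell was not tested.

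**Figure D3:**
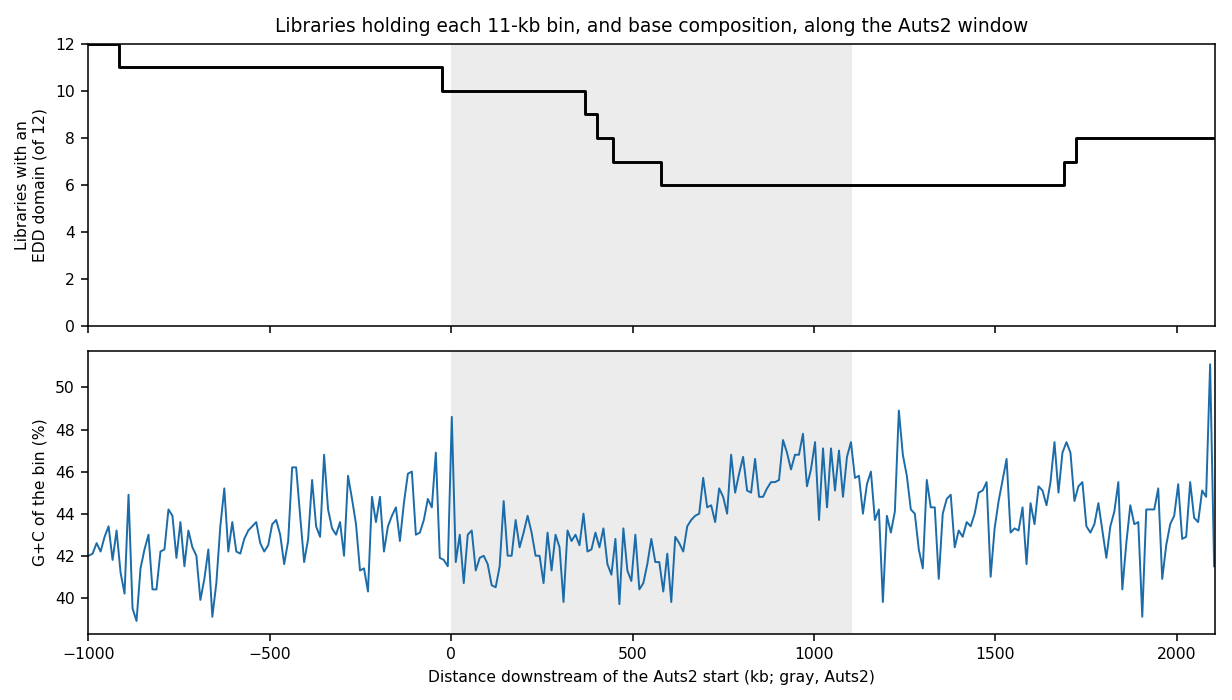
Number of the 12 libraries with an EDD domain (upper) and G+C percent (lower) in 11-kb bins along the Auts2 window, in kb from the gene's start, with the gene shaded. The number of libraries steps down from 10 to 6 between 370 and 579 kb into the gene and stays at 6 to its end.

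Before its start Auts2 borders 1556 kb with no protein-coding gene, up to Gatsl2 at chr5:134575581-134620213. The annotation places 7SK, the pseudogene Gm10051 and the processed transcript Gm15627 in it. Some of this stretch was held by all 12 libraries, against 10 for Auts2. Domains of N18 covered 100% of it in KO against 99.9% in WT after 30 cycles, and 100% in both after 12 cycles. Domains of 3A6 covered 96.4% in KO against 85.1% in WT after 30 cycles, and 97.8% in KO against 100% in WT after 12 cycles. LAP2alpha covered 41.0% after 30 cycles against 100% after 12 cycles, and lamin B1 93.5% after 30 cycles against 72.1% after 12 cycles. In the libraries that cut the gene, between 72.4% and 79.4% of the domain lay in this stretch and the rest in Auts2. The domains of N18 WT and of LAP2alpha after 30 cycles both ended at 134574000, 1.58 kb short of Gatsl2. The lamin B1 domain after 12 cycles lay wholly in this stretch, across 7SK and Gm10051, and began 25.8 kb before the Auts2 start.

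The domains that held Auts2 differed in length and in the genes they took in. Where Auts2 was cut, its domain was 1694 to 2101 kb long and held at most 1 protein-coding gene by the 50% count, Auts2 itself in 3A6 KO after 12 cycles. Where Auts2 was whole, it lay in a domain of many genes. For N18 after 30 cycles the domain was 32.5 Mb with 451 genes in KO, against 1.96 Mb with 0 genes in WT. For N18 after 12 cycles it was 22.6 Mb with 271 genes in KO, against 32.7 Mb with 459 genes in WT. For 3A6 it was 8.49 Mb with 40 genes in KO against 1.69 Mb with 0 genes in WT after 30 cycles, and 2101 kb with 1 gene in KO against 31.6 Mb with 438 genes in WT after 12 cycles. The LAP2alpha domain after 12 cycles was the longest, at 40.8 Mb with 560 genes. Its EDD score of 331 was the highest of that library, and the domain with Auts2 also ranked first by score in N18 KO after 30 cycles and in N18 WT and 3A6 WT after 12 cycles.

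Set against WT, the KO cover of Auts2 was 63.5 percentage points higher with N18 after 30 cycles and equal after 12 cycles. Among all genes, 24.8% were higher by at least 25 points in that comparison after 30 cycles and 1.90% lower, and after 12 cycles 7.82% were higher and 12.1% lower. With 3A6 it was 66.5 points higher after 30 cycles, where 9.17% of genes were higher by at least 25 points and 5.92% lower. With 3A6 after 12 cycles the difference was -47.6 points, where 5.15% were higher and 15.7% lower. The pair of changes seen with 3A6, lower in KO after 12 cycles and higher after 30, was shared by 2.68% of genes (595 of 22208). The bp that 3A6 lost in KO after 12 cycles were the 527 kb at the end of the gene, and those that it gained in KO after 30 cycles were 736 kb that include the same stretch. KO and WT each had their own input. After 30 cycles the median island held 46.4 (N18) and 47.4 (3A6) reads per kb in KO, against 37.7 and 37.3 in WT. Genotype, input and read density cannot be told apart there.

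Set against 12 cycles, the cover after 30 cycles differed by -63.5 points for N18 in WT, where 24.5% of genes were lower by at least 25 points and 2.86% higher, and by 0 in KO, where 12.5% were higher and 7.04% lower. For 3A6 it differed by 47.6 points in KO, where 7.55% of genes were higher and 5.68% lower, and by -66.5 points in WT, where 8.56% were higher and 20.3% lower. For LAP2alpha it differed by -100 points, with 12.4% of genes higher and 15.9% lower, and for lamin B1 by 40.4 points, with 9.84% higher and 0.635% lower. Flow cells and inputs changed together with sonication for lamin A/C and for LAP2alpha. In these libraries the median island held 20.3 to 20.7 reads per kb after 12 cycles, against 36.8 to 47.4 after 30 cycles. Sonication, flow cell, input and read density cannot be told apart there. Both lamin B1 libraries shared a lane.

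Between antibodies after 30 cycles in WT, the lamin A/C parts lay inside the lamin B1 part. The 403 kb of N18 were all within the 447 kb of lamin B1, 90.2% of the lamin B1 part, and the 370 kb of 3A6 were all within it, 82.8%. In KO cells after 30 cycles, lamin A/C from either antibody took in the 447 kb that lamin B1 held in WT and a further 659 kb. After 12 cycles no lamin A/C or LAP2alpha domain shared any bp of Auts2 with lamin B1, which had none there, while LAP2alpha, N18 and 3A6 in WT all held the 1106 kb. Lamin A/C, LAP2alpha and lamin B1 were read on different flow cells at both sonications. After 12 cycles the median island held 37.6 reads per kb in lamin B1, against 20.3 to 20.5 in WT LAP2alpha, N18 and 3A6. Target protein and flow cell cannot be told apart in these comparisons, nor can read density after 12 cycles.

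On the far side, Wbscr17, a GalNAc-transferase family gene that lies 129 kb past the Auts2 end, was covered to 100% in the same 6 libraries that held Auts2 whole and to 0% in the others. Caln1, a calcium-binding protein gene 597 kb past the end, was held by 8 libraries. Its cover was 100% in N18 KO against 95.6% in N18 WT after 30 cycles, and 100% in both genotypes after 12 cycles. For 3A6 it was 100% in KO against 0% in WT after 30 cycles, and 100% in both genotypes after 12 cycles. In N18 WT after 30 cycles and 3A6 KO after 12 cycles, Caln1 was in a separate domain, of 0.539 and 0.594 Mb, so these libraries held the regions on both sides and left out the end of Auts2 and Wbscr17.

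SICER islands were called by the authors in windows of 1000 bp. The 12 libraries had 19 islands in the gene, of 12.0 to 32.0 kb, in 7 libraries. N18 had 5 islands in KO against 0 in WT after 30 cycles, and 4 in KO against 3 in WT after 12 cycles. 3A6 had 3 in KO against 0 in WT after 30 cycles, and 1 in KO against 2 in WT after 12 cycles. Over all of chromosome 5, N18 had 487 islands in KO against 166 in WT after 30 cycles, and 268 against 377 after 12 cycles. The chromosome 5 counts of 3A6 were 196 in KO against 40 in WT after 30 cycles, and 96 against 394 after 12 cycles. More islands in KO after 30 cycles was thus not particular to Auts2. LAP2alpha had 0 after 30 cycles against 1 after 12 cycles, and lamin B1 had 0 at both sonications. Islands per Mb in Auts2, against chromosome 5, were 4.52 against 3.19 in N18 KO and 2.71 against 1.28 in 3A6 KO after 30 cycles. After 12 cycles they were 3.62 against 1.76 in N18 KO, 2.71 against 2.47 in N18 WT and 0.904 against 0.629 in 3A6 KO. Auts2 was below chromosome 5 in 3A6 WT (1.81 against 2.58) and LAP2alpha (0.904 against 2.98) after 12 cycles, and in the libraries with 0 islands. Having an island somewhere in a gene of this length was not rare. Among genes of at least 500 kb, 43.5% had one in N18 KO against 49.5% in N18 WT after 30 cycles, and 40.5% in N18 KO against 51.0% in N18 WT after 12 cycles. For 3A6 the shares were 39.5% in KO against 48.5% in WT after 30 cycles, and 43.0% in KO against 52.0% in WT after 12 cycles. They were 33.5% after 30 cycles against 46.5% after 12 cycles for LAP2alpha. The lamin B1 shares were 51.0% after 30 cycles and 48.5% after 12 cycles.

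Together the islands covered 8.75% of Auts2 in N18 KO after 30 cycles, the most of any library, and 6.42% in N18 KO after 12 cycles. The islands held 208 to 1354 ChIP reads each, at 17.3 to 45.5 reads per kb, and 18 of 19 were below the median density of their own library. Read densities of the Auts2 islands were not compared between libraries, whose median islands ran from 20.3 to 47.4 reads per kb. All 19 islands lay inside an EDD domain of the same library. This could not be otherwise in the 6 libraries whose domain covered the whole gene. Only 3A6 KO after 12 cycles, with 1 island, had an island while part of the gene lay outside its domains. Of the 19 islands, 13 lay in the end stretch and 3 in the start stretch, and 6 touched an exon. The place called in the most libraries lay in intron 5 at chr5:132016001-132068000. There 5 islands of 4 libraries (N18 KO after 30 cycles, N18 KO and WT after 12 cycles, and LAP2alpha after 12 cycles) met or touched. This place held no annotated transcript start, but the first base of ENSMUST00000161374.1, at 132014557, lay just below its low edge. The place at chr5:131911001-131938000, called in N18 KO at both sonications, held 2 transcript starts. In all, 6 of the 11 places with islands were called in 1 library only. The rest, apart from the place with 4 libraries, were called in 2 libraries each.

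**Figure D4:**
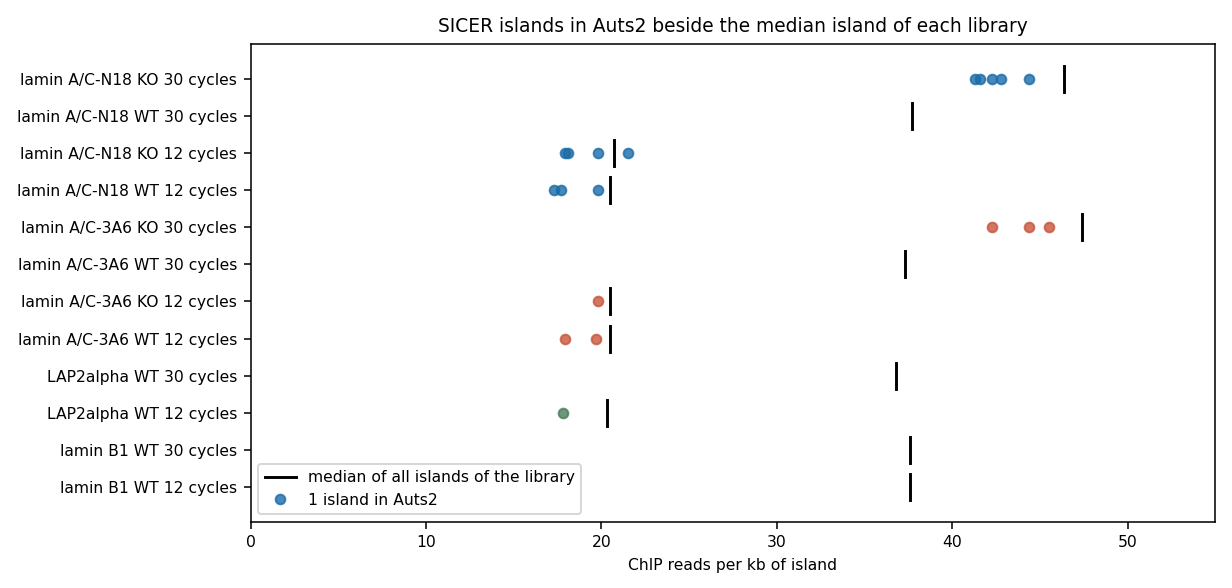
ChIP reads per kb of each SICER island in Auts2 (points), with the median of all islands of the same library (vertical line), 1 row per library. The 19 points run from 17.3 to 45.5 reads per kb and 18 lie left of their library's line, with no point for 5 libraries.

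The family of Auts2 and the genes of its known partners were also followed. Fbrsl1, a paralog on the same chromosome, was held by 3 libraries (N18 KO after 30 cycles, N18 WT and LAP2alpha after 12 cycles), and Fbrs by 1, LAP2alpha after 30 cycles, which held none of Auts2. Of 10 genes for the complexes that AUTS2 joins, between 0 and 3 were held in any library. The 3 of 10 in N18 KO after 30 cycles, N18 KO and N18 WT after 12 cycles and LAP2alpha after 12 cycles stood beside 28.5%, 23.1%, 27.4% and 35.9% of all genes, so these counts are not a result about the partners. Pcgf3 and Pcgf5, whose proteins define these complexes, were held by 0 libraries, as were Rybp and Yaf2, their RING1-binding subunits. The ubiquitin ligase genes Ring1 and Rnf2 were held by 4 and 2 libraries. Of the CK2 genes, Csnk2a1 and Csnk2a2, the catalytic subunits, were held by 3 libraries each and Csnk2b, the regulatory one, by 1. Ep300, the acetyltransferase P300, was held by 2, N18 KO after 30 cycles and N18 KO after 12 cycles. SICER islands met Yaf2 in 4 libraries, Pcgf5 in 3, Rybp in 1 and Pcgf3 in 0. The share of all genes held by as few libraries is not given here. The counts of libraries per gene are therefore not a result about the partners or the family.

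Among 2394 genes of at least 100 kb and farther than 1 Mb away, the 5 with cover most like that of Auts2 over the 12 libraries were Arhgef7, 4933407C03Rik, Klhl3, Cdyl2 and Mapk4. Their mean absolute difference from Auts2 was 10.3, 10.6, 12.4, 13.2 and 13.2 points, against a median of 63.6 over all genes compared and 13.6 for the next gene. The median of 63.6 is also the value of a gene with 0% cover in all 12 libraries, such as Pcgf3. It is therefore no measure of how covered genes differ. None of the 5 lies on chromosome 5. All were whole or nearly so in the 6 libraries that held Auts2 whole, and at 0% in 3A6 WT and LAP2alpha after 30 cycles. They were picked for cover like that of Auts2 in these same libraries, so this likeness follows from the choice. Klhl3, which encodes an adaptor of a ubiquitin ligase, was the one with lamin B1 cover, 40.7% after 30 cycles against 23.4% after 12 cycles.

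**Figure D5:**
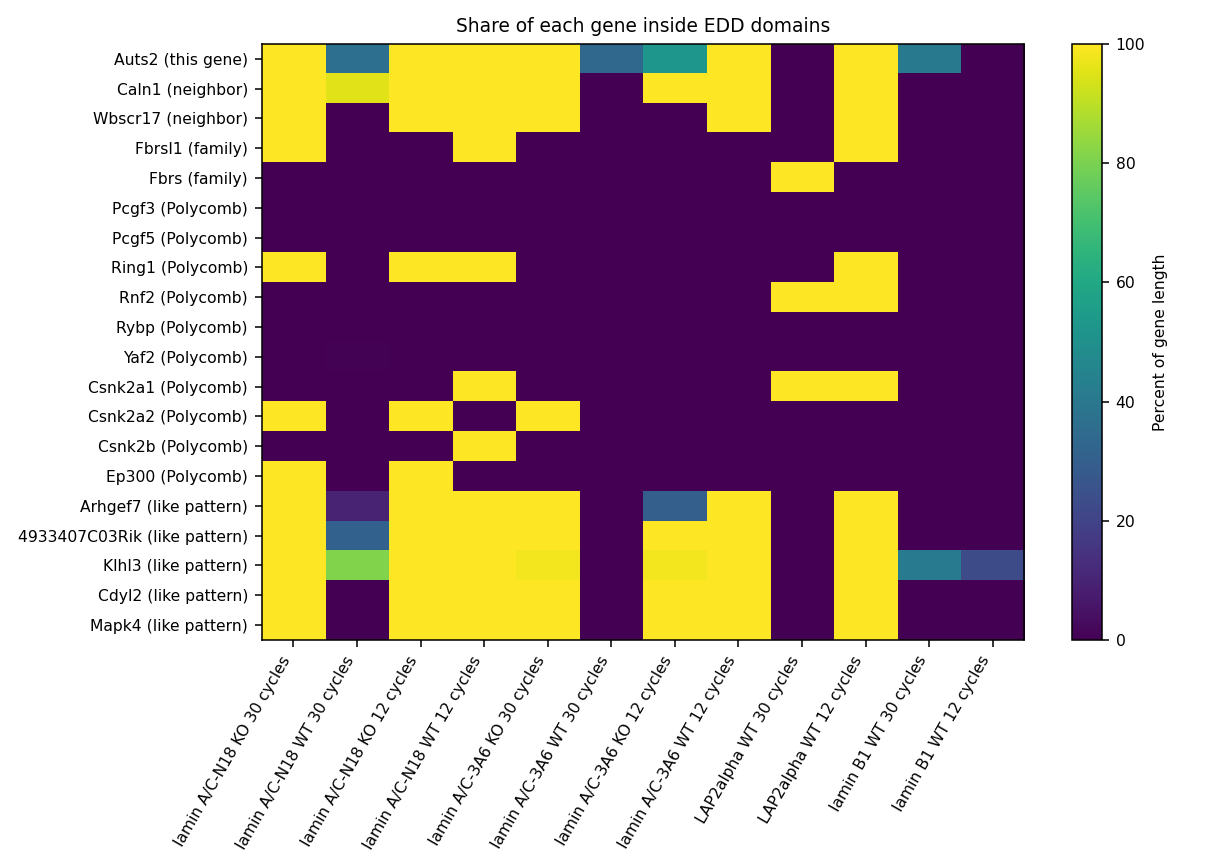
Percent of each gene inside EDD domains (color, 0 to 100%) for Auts2, its neighbors, its family, the genes of its Polycomb complexes and the 5 genes with the most similar cover, by library. Auts2 and Wbscr17 are both at 100% in 6 libraries, while Pcgf3, Pcgf5 and Rybp are at 0% in all 12.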

How the data were processed

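ChIP-seq region lists of 12 libraries, 1 per group, were analysed. The 4 inputs and 8 histone-mark samples were not analysed here. According to the submitters' processing notes, reads were handled with cutadapt, Bowtie2 2.1.0, Picard and SICER 1.1 with mm9. Before calling, duplicates were dropped and ChIP reads were thinned to the depth of the matched input, so island counts are not those of the full libraries. The deposited island lists hold counts, the ChIP reads in each island as the authors' SICER run gave them (window 1000 bp, gap 3000 bp, false discovery rate 0.01), with no division by length or input. The deposited domain lists hold a score, given by the authors' EDD run to each domain (bins of 11 kb, gap penalty 5, false discovery rate 0.1). Domain edges therefore move in steps of 11 kb, and 0 edges were off that grid. Reads in islands were 3989494 to 13601739 per library, with 194 to 370 domains and 4183 to 9159 islands. Reads in islands depend on how much was called as well as on depth, so they are not a measure of depth alone. Total sequenced reads were not used here. Depth sets what could be called, and its effect on these regions was not estimated.

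Groups came from the labels. Overlaps in bp with genes of Gencode vM1 on mm9 were computed in Python 3.11.15, and the overlap code was tested on simulated data. Sequences were read from the mm9 genome. Auts2 and the gene lists were chosen with earlier results of these data known. Named were Auts2, protein-coding genes within 1 Mb, its family, 10 genes of its complexes, and the 5 genes of at least 100 kb with the smallest mean absolute difference in cover. The difference of 25 points was chosen after values were seen. The alternatives were SICER islands in place of domains, stricter scores or lengths of domains, exons, other limits for held, a shorter flank and stronger islands.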

Additional observations from a re-analysis of the deposited data

Results flagged for a closer look

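The genotype difference of lamin A/C-3A6 at Auts2 had opposite signs at the 2 sonications. KO minus WT was 66.5 percentage points of the gene after 30 cycles and -47.6 points after 12 cycles. Seen the other way, 30 minus 12 cycles was 47.6 points with 3A6 in KO and -66.5 points with 3A6 in WT. In WT, 30 minus 12 cycles was -100 points for LAP2alpha and 40.4 points for lamin B1. The LAP2alpha libraries were also read on different flow cells and differed in read density, while the lamin B1 libraries shared a lane. Each of these values rests on 1 library per arm, so the differences between them were not tested.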

How the results depend on the processing

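Taking only domains that scored above the median of their library, or only those of at least 500 kb, left the cover of Auts2 and its differences as they were. These settings could not change them. Every domain that met Auts2 was at least 1694 kb long and scored above the median of its library. The number of libraries holding Auts2, 7 by the 50% limit, was 10 by at least 1 bp, 10 by the start site and 6 by the whole gene. SICER islands in place of domains gave far lower cover, since islands are short by construction. For N18 it was 8.75% in KO and 0% in WT after 30 cycles, and 6.42% in KO and 4.07% in WT after 12 cycles. For 3A6 it was 5.42% in KO and 0% in WT after 30 cycles, and 1.36% in KO and 2.44% in WT after 12 cycles. LAP2alpha had 1.63% after 12 cycles and lamin B1 0% after 30 cycles. With islands 0 libraries held Auts2. KO minus WT with islands was 8.75 points for N18 and 5.42 for 3A6 after 30 cycles, and -1.08 for 3A6 after 12 cycles. With islands, 30 minus 12 cycles was -4.07 points for N18 in WT, 4.07 for 3A6 in KO, -2.44 for 3A6 in WT, -1.63 for LAP2alpha and 0 for lamin B1. By exons in place of the whole gene, the cover was 14.1% in N18 WT, 3A6 WT and lamin B1 after 30 cycles, and 30.3% in 3A6 KO after 12 cycles, since most exon bases lie near the end. Keeping only islands above the median read count of their library changed the island count of 7 libraries. No paired analysis was possible because each group had 1 library. Every value rests on 1 library, and the effect of depth on what was called was not tested.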
